A study of Mus musculus with 4 samples.

Results

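The adenosine deaminases that act on RNA and on tRNA were examined in whole brain of adult female mice with and without ADAR2. The family was taken as 8 genes by symbol, namely Adar, Adarb1, Adarb2, Adad1, Adad2, Adat1, Adat2 and Adat3, and 7 of them had a row among 33793 transcript clusters with 24515 gene symbols. Such a cluster pools the probes placed on a transcribed locus into a single signal, and each of the 7 genes had 1 cluster. No row carried the symbol Adat3, and this gene was not analysed here. The samples were 4 arrays of total RNA, 2 from wild-type and 2 from Adar2-/- brains, all of strain 129SV. Per the study's methods, both genotypes were siblings from crosses of AdarB1 heterozygotes, and all carried the pre-edited Gria2 R/R allele, without which mice that lack ADAR2 die young. The wild type is therefore wild type at Adarb1 only. The knockout is constitutive and not limited to a cell type. Which exons it removes is not given in the sources used here.

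Enzymes of this family remove an amino group from adenosine in RNA and leave inosine, which ribosomes and reverse transcriptase read as guanosine. ADAR1 (Adar) and ADAR2 (Adarb1) act on double-stranded RNA, and in brain they recode transcripts of ion channels and neurotransmitter receptors. ADAR3 (Adarb2) binds double-stranded RNA but has no known editing activity. ADAT1 modifies a position beside the anticodon of alanine tRNA, while ADAT2 pairs with ADAT3 to form the inosine at the wobble position of several tRNAs. ADAD1 and ADAD2 share the deaminase fold and are genes of male germ cells. ADAR2 also edits its own pre-mRNA, which changes a splice site and limits the amount of ADAR2 protein.

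The median log2 signal of the arrays lay between 6.03 and 6.09, and Pearson's r across clusters was 0.993 to 0.995 for every pair of arrays, of the same or of different genotype. Neuron markers were high on all arrays, with a mean log2 signal of 11.17 to 11.23 over 8 of 8 genes. Some arrays stood apart in markers of olfactory bulb, salivary gland and anterior pituitary, and the source of these differences was not tested. All 7 olfactory bulb clusters were lowest in knockout replicate 2, where their summed linear signal was 1115, against 1568 in knockout replicate 1 and 1462 and 1674 in wild type. The 12 salivary gland clusters summed to 8313 in knockout replicate 1, against 476 to 493 on the other arrays, and most of this sum was Bpifa2, a saliva protein, with 12.61 on that array and 5.09 to 5.28 elsewhere. Anterior pituitary clusters, 9 in number, summed to 1350 and 646 in the knockout, and 380 and 337 in wild type. Most of the difference in this list was growth hormone, Gh, with 9.95 and 8.36 in the knockout and 6.30 and 5.68 in wild type, while the median log2 change was 0.165. Prolactin, Prl, a further pituitary hormone that is not in the list and was chosen after its values were seen, had 10.11 and 9.66 in the knockout and 6.55 and 4.99 in wild type. The part of these differences in any result on the deaminases was not tested, and results are given with each array left out where that changes them. The pituitary clusters were higher by mean in the knockout in 9 of 9 cases, and their sum was higher on both knockout arrays. Leaving out a single array therefore cannot separate the pituitary difference from genotype. In whole tissue, fewer cells of a type and less RNA per cell cannot be told apart.

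To see whether the arrays bear out their labels, the targeted gene was examined first. Adarb1 (cluster 17242281, chromosome 10, 77290726 to 77418273 in the coordinates of the file, minus strand, 24 probes) gave log2 signals of 10.50 (replicate 1) and 10.45 (replicate 2) for the wild type, and of 9.16 and 8.96 for the knockout in the same order. Both knockout arrays thus lay well below both wild-type arrays. The wild-type mean was 10.48 ± 0.035 (SD, n = 2). That of the knockout was 9.06 ± 0.14 (SD, n = 2). The difference, knockout minus wild type, was -1.42 on the log2 scale (SE 0.12, 95% interval -1.71 to -1.13), so that 37.5% of the wild-type signal was left, with an interval of 30.7% to 45.9%. Single pairs of one wild-type and one knockout array differed by 1.29 to 1.54, while arrays of the same genotype differed by 0.05 and 0.20. The limma test gave an unadjusted p of 2.57e-05, the lowest of all clusters, and an adjusted p of 0.409. By size, 2 other clusters on the array had a larger decrease. The exact permutation test over arrays gave a two-sided p of 0.333, the smallest that 2 arrays against 2 can reach.

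The signal that remained in the knockout was above that of genes which female brain should lack. Female mice have no Y chromosome, and the clusters of the 4 Y-linked genes Ddx3y, Eif2s3y, Kdm5d and Uty ranged from 3.49 to 4.40. Background differs between probes, and 15 genes of male germ cells, a cell type that females lack, spanned 3.18 to 7.20, with Prm2 the highest. The lower of the knockout values of Adarb1, 8.96, was above both ranges. After the mean linear signal of the Y-linked clusters was taken from each array, the difference was -1.44 and the remaining signal 36.8%. Background of this size therefore moved the value by less than the spread between replicates. The array gives 1 value for the whole cluster, so that exons kept and exons removed by the knockout allele cannot be told apart, and the value says nothing about functional ADAR2 protein.

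**Figure D1:**
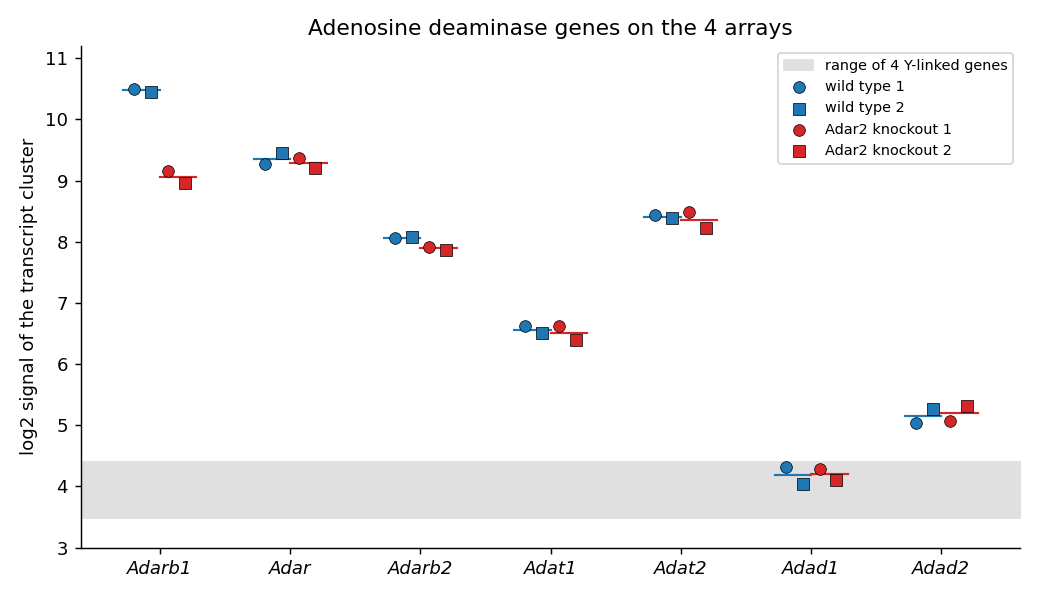
Log2 signal of the 7 deaminase clusters (y axis) by gene (x axis) on 4 arrays, with circles for replicate 1, squares for replicate 2, and bars at the mean of each genotype. The grey band spans the 4 Y-linked genes, 3.49 to 4.40. Adarb1 lies at 10.50 and 10.45 in wild type and at 9.16 and 8.96 in the knockout. Heights of different genes are not comparable because their probes differ.

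The other double-stranded RNA editing enzymes were examined for a change in the absence of ADAR2. Adar (cluster 17399496, chromosome 3, 89715022 to 89753455, plus strand, 38 probes), which encodes ADAR1, had 9.27 and 9.45 in wild type and 9.37 and 9.21 in the knockout. The groups overlapped, with the highest and the second highest value in different genotypes. The difference was -0.07 (SE 0.12, 95% interval -0.37 to 0.23, limma p 0.591, adjusted p 0.958). A level between 77.2% and 117.6% of wild type was thus within the error, and smaller shifts were not detectable with these arrays. ADAR1 has a constitutive and an interferon-induced form, which the single cluster does not separate.

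Adarb2 (cluster 17285036, chromosome 13, 8202866 to 8768747, plus strand, 28 probes) had 8.06 and 8.07 in wild type and 7.91 and 7.87 in the knockout. Both knockout values were below both wild-type values, and arrays of the same genotype differed by no more than 0.04. The difference was -0.18 (SE 0.10, 95% interval -0.43 to 0.08), a level of 88.6% of wild type, with a limma p of 0.137 and an adjusted p of 0.854. The interval includes 0 because limma draws the small spread of this cluster toward that of all clusters. In a pooled-variance test without this shrinkage the unadjusted p was 0.0136 and the adjusted p 0.843. At an unadjusted p below 0.05 that test called 1897 of all 33793 clusters. The wild-type values of Adarb2 differed by 0.01, the last decimal kept in the deposited values. Groups that did not overlap, in the lower direction, were seen in 16.5% of all clusters, so that this feature alone does not set Adarb2 apart.

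Adarb2 is known as a marker of interneurons that arise in the caudal ganglionic eminence, and a list of such interneuron genes was therefore read beside it. Of 8 listed genes 7 had a cluster, of which 3 were higher and 4 lower in the knockout by mean, with a median log2 change of -0.045. The summed linear signal of the list was 6804 and 7186 in wild type and 6609 and 6367 in the knockout. Most of this sum was Cck, with 11.94 and 11.93 in wild type and 11.83 and 11.81 in the knockout. Prox1, a transcription factor of these cells, had 7.99 and 7.95 in wild type and 7.52 and 7.66 in the knockout (limma p 0.0141), and was the only gene of the list with an unadjusted p below 0.05. Vip, a neuropeptide of a subset of them, had 7.80 and 8.11 in wild type and 8.05 and 8.10 in the knockout. The part of interneuron number in the values of Adarb2 was not tested. Without knockout replicate 2, the array with low olfactory bulb genes, the difference of Adarb2 was -0.16.

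The deaminases of tRNA showed smaller differences. Adat1 (cluster 17513194, chromosome 8, 111966908 to 111992302, minus strand, 19 probes) had 6.62 and 6.51 in wild type and 6.62 and 6.40 in the knockout, so that replicate 1 was the same in both genotypes. These values, too, lay inside the span of the male germ cell genes, and expression of Adat1 cannot be read from its signal alone. The difference was -0.055 (SE 0.12, 95% interval -0.36 to 0.25, limma p 0.673). Adat2 (cluster 17231733, chromosome 10, 13552894 to 13563376, plus strand, 27 probes), the catalytic partner in wobble inosine formation, had 8.43 and 8.38 in wild type and 8.48 and 8.23 in the knockout. The knockout arrays lay on both sides of the wild-type arrays. The difference was -0.05 (SE 0.13, 95% interval -0.36 to 0.26, limma p 0.705). Without knockout replicate 2 the differences had the opposite sign, 0.055 for Adat1 and 0.075 for Adat2.

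Of Adat3, the noncatalytic partner of ADAT2, no value is given. In RefSeq (GRCm38.p6) the span of Adat3 overlaps that of Scamp4, a carrier protein of secretory membranes, and the Scamp4 cluster in the file (17235368, chromosome 10, 80602880 to 80615783, 24 probes) has the RefSeq start of Adat3 as its own. It is therefore open to transcripts of either gene. This cluster, chosen after its values were seen, had 8.48 and 8.69 in wild type and 8.42 and 8.55 in the knockout. The groups overlapped, and the difference was -0.10 (SE 0.12, 95% interval -0.41 to 0.21, limma p 0.452).

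The germ cell members were within the range of the other germ cell genes. Adad1 (cluster 17397091, chromosome 3, 37063527 to 37121924, plus strand, 28 probes) had 4.32 and 4.04 in wild type and 4.29 and 4.11 in the knockout, all within the range of the Y-linked genes. A transcript of Adad1 was thus not detectable above background, and its difference was 0.02 (SE 0.14, limma p 0.892). Adad2 (cluster 17506126, chromosome 8, 119612747 to 119616926, plus strand, 23 probes) had 5.03 and 5.27 in wild type and 5.07 and 5.32 in the knockout, and these values were above the Y-linked range. They lay inside the wider span of the male germ cell genes, 3.18 to 7.20, so that expression in brain cannot be read from them. The difference was 0.045 (SE 0.14, 95% interval -0.31 to 0.40, limma p 0.764).

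Across the family, 0 of 7 members had an adjusted limma p below 0.05, as did 0.0% of all clusters. At an unadjusted p below 0.05 there was 1 of 7, Adarb1, against 5.95% of all clusters (2.31% lower and 3.64% higher). The share of lower clusters among these calls depended on scaling, with 38.8% as deposited, 60.5% after median centring, 51.3% after quantile normalization and 49.8% after cyclic loess. By mean, 5 members were lower and 2 higher in the knockout, with a median change of -0.055 beside 0.005 over all clusters. Groups did not overlap in 2 of 7 members, Adarb1 and Adarb2, and in 34.1% of all clusters. For the 6 members other than Adarb1 the changes were at most 0.18 in size, and the adjusted p ranged from 0.854 to 0.989. The change of Adarb1 less the change of each of these 6 genes was -1.46 to -1.24 on the log2 scale. In each of the 6 cases both knockout arrays were apart from both wild-type arrays, with the exact permutation p at its minimum of 0.333. This separation follows from the values of Adarb1 alone, whose single pairs of arrays differed by 1.29 to 1.54. The 6 cases are therefore not further support. Replicates of 1 genotype differed by at most 0.28 in any member, and the median of this difference was 0.11 in wild type and 0.20 in the knockout, beside 0.13 and 0.13 over all clusters.

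Knockout replicate 2 held the lowest of the 4 values in 5 of 7 members, namely Adar, Adarb1, Adarb2, Adat1 and Adat2, and in 25.9% of all clusters. It was also the array on which the olfactory bulb genes were low, and the part of this in the members' values was not tested. Without it the difference of Adarb1 was -1.32, and that of Adar was 0.01. The sign of Adar also changed without wild type replicate 2, to 0.02.

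**Figure D2:**
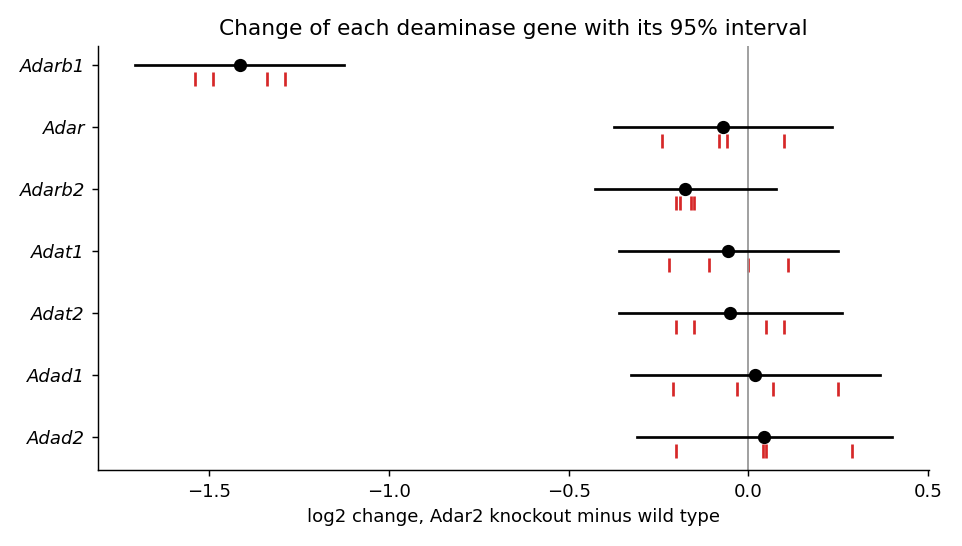
Log2 change, knockout minus wild type (x axis), of each deaminase gene (y axis), with the black dot and line for the limma estimate and its 95% interval and red ticks for the 4 pairs of one wild-type and one knockout array. Adarb1 lies at -1.42 (interval -1.71 to -1.13), and the intervals of the 6 other genes include 0.

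**Figure D3:**
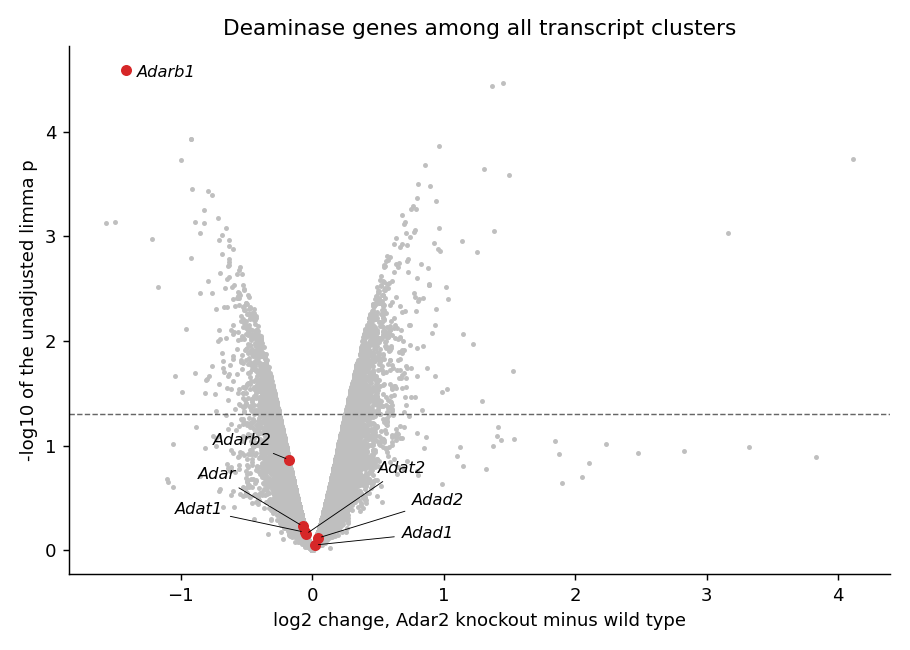
Unadjusted limma p on a -log10 scale (y axis) against log2 change, knockout minus wild type (x axis), for 33793 clusters in grey and the 7 deaminase clusters in red; the dashed line marks p of 0.05. Adarb1 has the lowest p, 2.57e-05, and the other 6 lie below the line.

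Next, genes that share sequence or position with the members were examined. Clusters overlapped in the span of 3 members, each time from the opposite strand. Chrnb2, a subunit of nicotinic acetylcholine receptors, overlapped the end of Adar by 8 bases and had 9.47 and 9.51 in wild type and 9.30 and 9.35 in the knockout (difference -0.17, SE 0.10, limma p 0.16). Pex3, needed to form peroxisomes, overlapped the start of Adat2 by 249 bases and had 9.06 and 8.80 in wild type and 8.61 and 8.91 in the knockout (difference -0.17, SE 0.15, limma p 0.314). Il2, the T cell growth factor interleukin 2, overlapped Adad1 by 1570 bases and had 3.39 to 3.50 on all arrays. None of these overlapping genes had an unadjusted p below 0.05.

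Around the targeted locus on chromosome 10, the closest cluster with a symbol was Gm17769, on the opposite strand and 0.1 kb from its 5′ end. It had 6.79 and 6.68 in wild type and 6.82 and 6.75 in the knockout, with overlapping groups and a difference of 0.05 (SE 0.11, limma p 0.66). On the other side Pofut2, which adds fucose to secreted proteins, lies 21.1 kb away and had 9.36 and 9.38 in wild type and 9.13 and 9.25 in the knockout (difference -0.18, SE 0.11, limma p 0.145). Of the 416 clusters within 10 Mb of Adarb1, among them that of Scamp4, 6 were lower and 12 higher at an unadjusted p below 0.05. This is 4.33%, against 5.95% of all clusters, and the median change was 0.01. Changes in this window ranged from -1.04 to 0.585. The lowest was that of a cluster with no symbol, of 9 probes marked as able to cross-hybridize, with 5.38 and 6.29 in wild type and 5.09 and 4.50 in the knockout (limma p 0.0218). The highest was that of the predicted gene Gm5134, with 5.21 and 5.37 in wild type and 5.81 and 5.94 in the knockout (limma p 0.00278).

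The genes whose pattern over the 4 arrays came closest to that of Adarb1 were named by Euclidean distance between log2 values, each less its own mean. A gene with the same value on all arrays has a distance of 1.42. The 5 nearest clusters with a symbol were Mir376b at 0.45, Mir9-2 at 0.48, Serpinb1a at 0.52, Fau at 0.60 and Gm10509 at 0.60. The Mir9-2 cluster is marked as able to cross-hybridize, so that its signal may not be its own. The Mir376b precursor locus had 7.85 and 7.79 in wild type and 7.02 and 6.28 in the knockout, so that its knockout arrays differed more from each other than those of Adarb1. Serpinb1a, a protease inhibitor, had 6.12 and 6.25 in wild type and 5.37 and 5.17 in the knockout. Fau, which encodes a ribosomal protein fused to a ubiquitin-like protein, had 8.43 and 9.18 in wild type and 7.25 and 7.23 in the knockout. With 4 arrays in 2 genotypes the likeness is mainly the difference between genotypes, and it was not tested.

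Genes that work beside the deaminases were read in 7 lists. Over 129 clusters of these lists, 4 were lower and 0 higher at an unadjusted limma p below 0.05, or 3.1%, against 5.95% of all clusters, and 0 passed the adjusted threshold. The median change over the lists was -0.01, beside 0.005 over all clusters. Single lists had medians of -0.06 to 0.055.

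The cytidine deaminases, which form uridine from cytidine in RNA, DNA or free nucleotides, had 2 of 8 clusters lower and 0 higher at an unadjusted p below 0.05. Dctd, which deaminates dCMP for thymidylate synthesis, had 7.77 and 7.37 in wild type and 7.10 and 6.84 in the knockout (difference -0.60, SE 0.17, limma p 0.014, adjusted p 0.834). Apobec2 had 5.72 and 5.65 in wild type and 5.33 and 5.37 in the knockout (difference -0.34, SE 0.10, limma p 0.0187, adjusted p 0.834). In both genes the groups did not overlap, while the median of the list was 0.055, as 5 of 8 clusters had the higher mean in the knockout. Cda, which deaminates free cytidine, had 7.69 on both wild-type arrays and 8.09 and 7.87 in the knockout (difference 0.29, SE 0.12, limma p 0.0532). Apobec1, the editing enzyme of apolipoprotein B mRNA, had 5.90 and 5.73 in wild type and 5.60 and 5.58 in the knockout (difference -0.23, limma p 0.0944). All values of Apobec2 and Apobec1 lay inside the span of the male germ cell genes, 3.18 to 7.20. Expression of these genes cannot be read from their signal alone.

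Purine deaminases and inosine metabolism, with enzymes that act on free adenosine or AMP rather than on RNA, had 0 of 19 clusters past an unadjusted p of 0.05. The largest change was that of Xdh, which oxidises hypoxanthine to urate, with 6.44 and 6.74 in wild type and 7.02 and 6.76 in the knockout (limma p 0.101). Ada, the deaminase of free adenosine, had overlapping groups and a difference of 0.04 (SE 0.16, limma p 0.812). The list had a median of -0.005.

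Proteins with double-stranded RNA-binding function had 1 of 18 clusters lower and 0 higher at an unadjusted p below 0.05, with 9 lower and 8 higher by mean and a median of -0.008. The lower cluster was Ilf2, a nuclear RNA-binding factor, with 10.14 on both wild-type arrays and 9.75 and 9.94 in the knockout (difference -0.30, SE 0.12, limma p 0.0442, adjusted p 0.834). Among 5 proteins that bind or cleave inosine-containing RNA, Nono, a paraspeckle protein, had 9.74 and 9.45 in wild type and 9.19 and 9.28 in the knockout (difference -0.36, SE 0.14, limma p 0.0381, adjusted p 0.834). Its partner Sfpq had 8.54 and 8.33 in wild type and 8.48 and 8.60 in the knockout. At an unadjusted p below 0.05 this list had 1 cluster lower and 0 higher, with 3 lower and 2 higher by mean and a median of -0.045.

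Regulators and carriers of ADAR proteins had 0 of 19 clusters past an unadjusted p of 0.05 and a median of 0.03. Wwp2, the ubiquitin ligase that directs ADAR2 to degradation, had 8.65 and 8.72 in wild type and 8.57 and 8.46 in the knockout (limma p 0.168). The largest change was that of the splicing factor Srsf9, with 9.32 and 9.27 in wild type and 9.19 and 8.80 in the knockout (limma p 0.0998).

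Enzymes that modify tRNA, most of them in the anticodon loop, where ADAT1, ADAT2 and ADAT3 act, had 0 of 35 clusters past an unadjusted p of 0.05. At least 5 of these clusters, those of Trmt6, Trmt61a, Trmt1, Dus1l and Dus3l, belong to enzymes of other tRNA positions. By mean, 22 were lower and 13 higher, and the median was -0.06. Nsun3, a methyltransferase of mitochondrial tRNA, had the largest difference, with 8.14 and 7.75 in wild type and 7.52 and 7.77 in the knockout (limma p 0.129), and its groups overlapped. Interferon-induced genes and sensors of double-stranded RNA, which respond when ADAR1 is lost, had 0 of 25 clusters past an unadjusted p of 0.05 and a median of -0.025. The largest change was that of Rsad2, with 6.17 and 5.69 in wild type and 5.49 and 5.76 in the knockout (limma p 0.162). Ifih1, which encodes the sensor MDA5, had 5.79 and 5.71 in wild type and 5.63 and 6.12 in the knockout, so that the knockout arrays lay on both sides of the wild-type arrays. Signals in this list ranged from 3.06 to 8.61. Those of Rsad2 and Ifih1 lay inside the span of the male germ cell genes, 3.18 to 7.20. For genes in that span, the lack of calls cannot be read as a lack of response.

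**Figure D4:**
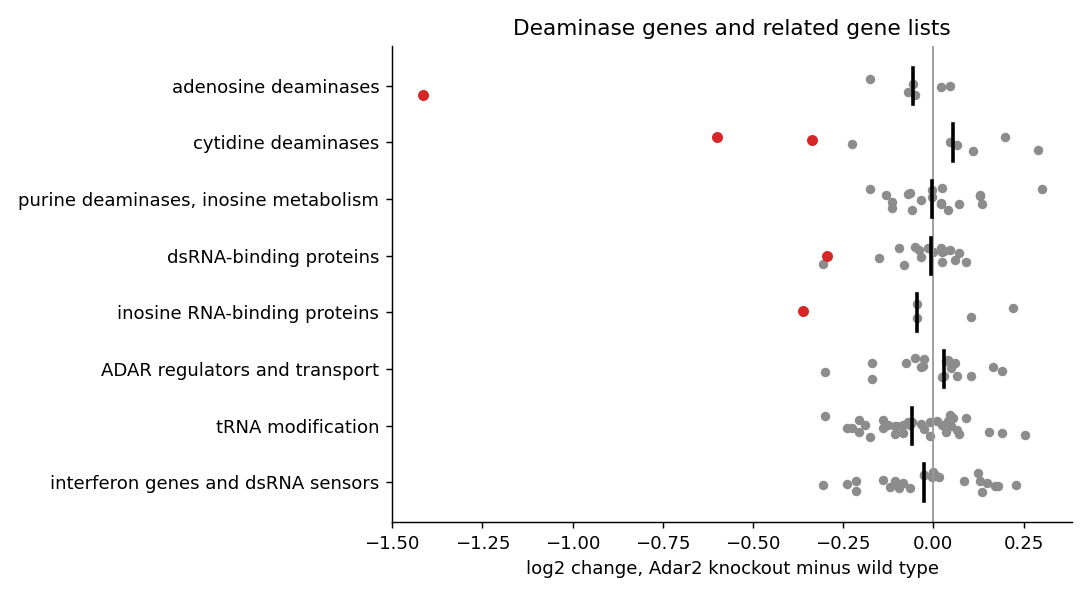
Log2 change, knockout minus wild type (x axis), of every cluster in the deaminase family and in 7 related gene lists (y axis), with red points for an unadjusted limma p below 0.05 and a black bar at the median of each list. Adarb1 stands alone at -1.42, and list medians lie between -0.06 and 0.055.

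Markers of the cell types of the brain were read for a shift that could move with the members. Medians were -0.032 for neurons, -0.022 for oligodendrocytes, -0.12 for astrocytes, -0.073 for microglia, 0.015 for endothelium and 0.025 for choroid plexus, over 6 to 8 clusters each. By mean, 7 of 8 neuron, 7 of 8 oligodendrocyte, 5 of 8 astrocyte and 7 of 8 microglia clusters were lower in the knockout, while 4 of 6 endothelial and 5 of 6 choroid plexus clusters were higher. At an unadjusted p below 0.05 there were 3 of 44 clusters, 2 lower and 1 higher, or 6.82%, beside 5.95% of all clusters. The medians of astrocytes and microglia were larger in size than the changes of Adar, Adat1 and Adat2 and smaller than that of Adarb2, and their part in the small differences of the members was not tested.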

How the data were processed

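Whole-brain total RNA was prepared with a whole-transcript expression kit and run on 4 Affymetrix mouse arrays at a core facility. The authors deposited 1 normalized log2 signal per transcript cluster and array, to 2 decimals. The submitters' processing notes name Affymetrix Expression Console and RMA, which corrects background, normalizes quantiles and summarises probes. Probe-level values, detection calls and the genome build of the coordinates are not given in the sources used here. The number of arrays limits the precision. Columns with the authors' fold changes, log ratios and p-values were not used.

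Members were matched by gene symbol. All 7 clusters found overlapped the RefSeq span of their gene, and none is marked as having probes that can cross-hybridize. The members and lists were chosen with earlier results of these data known. The genotypes were compared by linear models with empirical Bayes shrinkage (limma 3.58.1, run in R 4.3.3; two-sided, with no covariate beside genotype), with Benjamini-Hochberg adjustment over all 33793 clusters and a threshold of 0.05. The prior SD was 0.125 with 3.79 degrees of freedom. The methods describe RNA from 2 wild-type and 2 knockout mice, and no label names the animal behind an array. The p-values rest on the spread between these 4 samples. No set was tested: lists are given by counts and medians. Named were the members, overlapping clusters and the 5 clusters most like Adarb1. In each of the 7 related gene lists, up to 2 genes each way were named by largest change. They had an unadjusted p below 0.05 and no overlap of genotypes. Where no gene passed, the largest change was named. This rule was not applied to the marker lists of cell types and tissues. Other genes were named for their role, after their values were seen. Some genes of the lists are counted but not reported here by name. Python 3.11.15, pandas 2.3.3 and matplotlib 3.10.9 were used.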

Additional observations from a re-analysis of the deposited data

How the results depend on the processing

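The difference of Adarb1 kept its direction in 14 of 14 alternatives, from -1.52 to -1.32, both reached by leaving out a knockout array. Its unadjusted p was at most 0.00526 in the 13 that give one, where the adjusted p was 0.139 to 0.917. Adarb2 was lower in 14 of 14 alternatives, from -0.22 to -0.14. The other members changed sign in some, at an unadjusted p of at least 0.187 throughout. After median centring Adad1 was at -0.02, with quantile normalization Adad1 was at -0.022 and Adad2 at -0.006, and with cyclic loess they were at -0.027 and -0.008. With single arrays left out, when the lone array of a genotype is assumed to vary like the others, the ranges were -0.16 to 0.02 for Adar, -0.12 to 0.16 for Adad1, -0.08 to 0.17 for Adad2, -0.165 to 0.055 for Adat1 and -0.175 to 0.075 for Adat2. Adad1 and Adad2 lie below the median signal and have no value under the filter on dim clusters. Calls at an adjusted p of 0.05 numbered 0 except in the pooled-variance test without shrinkage, with 15 clusters, all of them without spread in either genotype after rounding and none a member. The count at an unadjusted p below 0.05 was 2009, and 989 among clusters above the median signal, where fewer clusters were tested. It ranged from 1221 (without wild type replicate 1) to 1801 with single arrays left out. Arrays of the same number were not treated as pairs, because their deviations from the genotype means barely went together (Pearson's r 0.0516). In a fit with a block for replicate number, the difference of Adarb1 was -1.42 (unadjusted p 0.000551), the counts were 0 and 1693, and no call on a member changed.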
